A study of Sus scrofa with 4 samples.

Results

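Matrix metalloproteinases (MMPs), ADAMTS proteases and their tissue inhibitors (TIMPs) were followed in pig epidermal cells sorted for LGR5. The 10 genes were taken from the count table by gene name. They are the gelatinase genes MMP2 and MMP9, the membrane-type genes MMP14 and MMP15, the aggrecanase-type genes ADAMTS1, ADAMTS5 and ADAMTS9, and the inhibitor genes TIMP1, TIMP2 and TIMP3. All 10 had a row among the 29837 named genes, and all 10 were among the 15980 genes that passed the filter on low counts. MMP9 had more than 10 counts only in LGR5-negative, so it entered the test through the population where it was high.

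The cells came from juvenile transgenic LGR5-H2B-GFP pigs, in which 1 LGR5 allele carries a histone H2B-GFP fusion inserted into exon 1 and the other allele is intact. The model was founded by nuclear transfer from edited clonal fibroblast lines, and both populations carry the same alleles. Skin was treated with Dispase II and trypsin, hair and epidermis were taken off the dermis by hand, and live cells were sorted as GFP-hi (LGR5-high) or GFP-neg (LGR5-negative). Pigs 88R and 95R each gave 1 library of each population, so there were 2 libraries in a group. Because H2B-GFP is diluted at division rather than lost at once, GFP marks cells with a recent history of LGR5 expression as well as current LGR5 cells, and LGR5-negative holds all other epidermal cells without visible GFP, while cells of low GFP were not among the libraries.

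As background, MMPs are zinc endopeptidases made as inactive proenzymes, and between them they can cut most proteins of the matrix. MMP14 sits in the plasma membrane, cuts fibrillar collagen and activates pro-MMP2 in a complex in which TIMP2 acts as the bridge, so that TIMP2 takes part in both activation and inhibition of MMP2. ADAMTS proteases are secreted and carry thrombospondin repeats, and some of them cut the large proteoglycans aggrecan and versican. TIMP3 differs from the other TIMPs in that it binds to the matrix and also inhibits ADAMTS proteases. In skin these enzymes are known for remodelling of the basement membrane and of the follicle sheath during hair growth and wound repair.

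The libraries held between 30696803 and 32463362 counts on named genes, and the floor of 3 counts used here corresponded to between 0.0873 and 0.105 CPM (library-scaled counts in units of 1e-06 of the library, after TMM, edgeR's trimmed mean scaling). LGR5 itself had 132 and 188 CPM in LGR5-high against 1.26 and 3.61 CPM in LGR5-negative, for pigs 88R and 95R in that order, which is the order of all paired values that follow. The basal keratinocyte gene KRT5 lay between 23664 and 29558 CPM in all 4 libraries. The populations differed in differentiated epidermis, of whose 5 markers 4 were lower in LGR5-high and 0 were higher. Their summed level was 5611 and 5054 CPM against 64020 and 54970 CPM. Of 6 hair follicle markers 4 were higher, LGR5 among them, and 0 were lower. Among 8 fibroblast markers 5 were lower in LGR5-high and 2 were higher, and the summed level was 253 and 472 CPM against 354 and 232 CPM. Of 6 pericyte and smooth muscle markers 4 were higher and 0 were lower, with sums of 402 and 290 CPM against 15.8 and 15.6 CPM, of which TAGLN made up 389 and 277 CPM in LGR5-high and 11.4 and 9.99 CPM in LGR5-negative. Of 5 endothelial markers 1 was higher and 3 were lower, and of 6 immune markers 0 and 3. Of 5 melanocyte markers 0 were higher and 3 lower, and of 4 Schwann cell markers 1 and 1. Over all genes tested, 22.7% were higher and 22.0% lower. LUM, PDGFRA, MFAP5, CDH5, KDR, PTPRC and CD207 had under 10 counts in both LGR5-high libraries. They entered the test only through LGR5-negative, so their place among the lower markers is a description. In sorted bulk RNA a larger share of cells of some type and more RNA per cell cannot be told apart.

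Calls were made by edgeR's quasi-likelihood test with a Benjamini-Hochberg adjusted p-value below 0.05. Of the 10 genes, 5 were higher in LGR5-high, 3 were lower and 2 were not called. The higher genes were MMP2, MMP15, ADAMTS9, TIMP2 and TIMP3, the lower genes were MMP9, ADAMTS1 and TIMP1, and MMP14 and ADAMTS5 were not called. Over all 15980 genes tested, 22.7% were higher and 22.0% were lower. The median log2 fold change was 0.79 for the 10 genes and 0.02 for all genes tested. A fit with a replicate block for the pig called the same 5 and 3 genes, where 28.5% and 27.2% of all genes were. The kind of gene-by-gene test that the study's methods name, run here on log2 CPM, estimates each gene's spread from its own 4 values. After Benjamini-Hochberg adjustment it kept only MMP2 of these 8 calls, although 5 higher and 3 lower genes of the 10 had an unadjusted p-value below 0.05 in it.

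**Figure D1:**
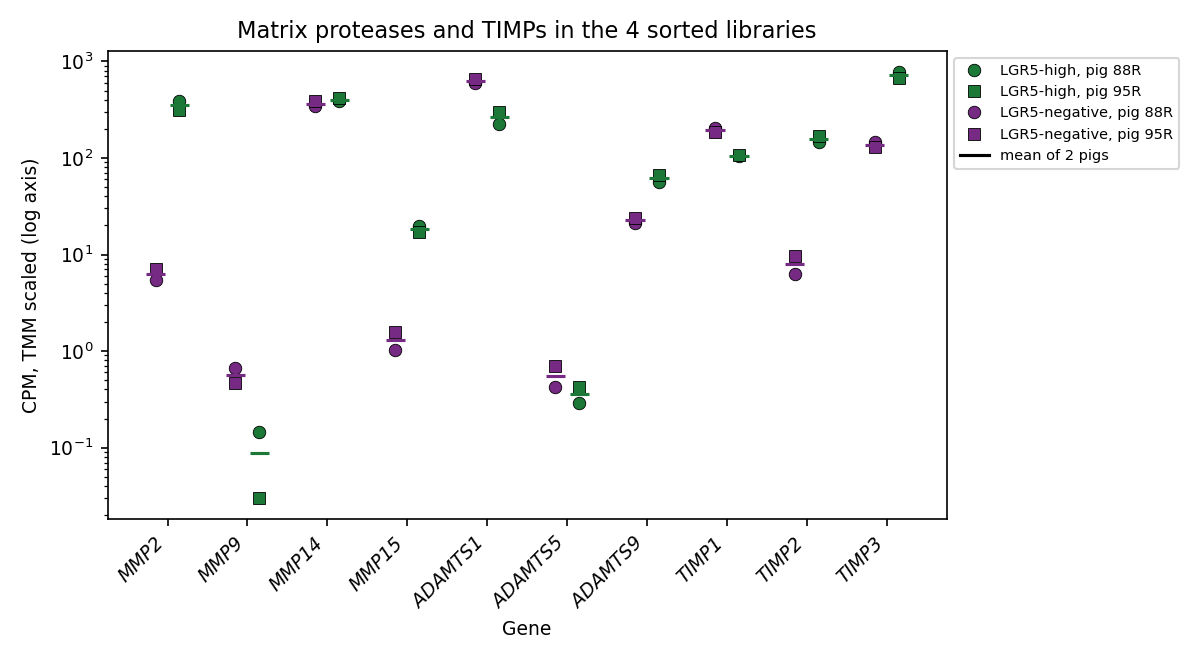
CPM of the 10 genes (log axis) in each library, with LGR5-high in green, LGR5-negative in purple, circles for pig 88R, squares for pig 95R and a bar at the mean of the 2 pigs. For MMP2, MMP15, TIMP2 and TIMP3 the populations lie far apart (for MMP2 350 against 6.24 CPM on average), for MMP14 they nearly meet, and for ADAMTS5 they overlap.

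The gelatinases went in opposite directions. MMP2, the constitutive gelatinase of many stromal and epithelial cells, had 13316 and 10333 counts in LGR5-high and 156 and 212 counts in LGR5-negative. On the CPM scale these were 387 and 313 against 5.47 and 7.02, and every LGR5-high value was above every LGR5-negative value. The means were 350 ± 52.7 CPM (SD, n = 2 pigs) and 6.24 ± 1.09 CPM (SD, n = 2), and the log2 fold change was 5.81 (SE 0.184, edgeR adjusted p = 4.58e-05). Within the pigs the log2 fold change of MMP2 was 6.13 and 5.47. It was the largest among the 10 genes, and MMP2 stood at rank 32 by p-value among the genes with a higher estimate in LGR5-high. Of the 5 lower fibroblast markers, PDGFRA had 4 and 3 counts in LGR5-high against 21 and 21, and LUM had 5 and 0 counts against 47 and 31. Both entered the test only through LGR5-negative. DCN, also lower, had 83.4 and 112 CPM in LGR5-high against 182 and 163 CPM. The 2 higher markers were COL1A1, with 142 and 331 CPM against 94.0 and 37.3 CPM, and FBLN1, with 22.0 and 23.0 CPM against 7.69 and 6.75 CPM. COL1A2, not among these markers, had 497 and 561 CPM against 57.7 and 24.0 CPM. Of the pericyte and smooth muscle markers, ACTA2 had 3.90 and 4.30 CPM against 0.772 and 1.16 CPM, and DES had 0 and 2 counts in LGR5-high. The part of fibroblasts and pericytes in the differences of MMP2, TIMP2 and TIMP3 was not tested.

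MMP9, the gelatinase best known from leukocytes and from keratinocytes at wound edges, was close to the limit of detection. It had 5 and 1 counts in LGR5-high and 19 and 14 counts in LGR5-negative, and both LGR5-negative libraries were above both LGR5-high libraries. Summed over the pigs this was 6 against 33 counts, a ratio of 6.31 in favour of LGR5-negative with a 95% counting interval of 2.61 to 18.4, which covers counting error only. The log2 fold change was -2.61 (SE 0.692, edgeR adjusted p = 0.0266). The call was lost without the LGR5-negative library of pig 88R (adjusted p = 0.108 from edgeR), without the LGR5-high library of pig 95R (adjusted p = 0.147 from edgeR), and in DESeq2 (adjusted p = 0.0833). Of 6 immune markers 3 were lower in LGR5-high (PTPRC, CSF1R and CD207), LYZ and CD163 were not called, and CD3E, with 0 counts in LGR5-high and 1 and 2 in LGR5-negative, was not tested. Their summed level was 9.02 and 2.75 CPM against 92.2 and 33.9 CPM, of which the uncalled LYZ made up 7.07 and 1.36 CPM against 73.4 and 8.47 CPM. The leukocyte gene PTPRC had 7 and 4 counts against 55 and 86. The Langerhans cell gene CD207 had 9 and 7 counts against 74 and 172. Both PTPRC and CD207 entered the test only through LGR5-negative. The part of immune cells in the MMP9 difference was not tested.

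Of the membrane-type enzymes, MMP14 was near the same level in both populations and MMP15 was not. MMP14 had 393 and 414 CPM in LGR5-high and 345 and 385 CPM in LGR5-negative, so that the populations did not overlap but lay close together. The means were 403 ± 14.6 and 365 ± 28.9 CPM (SD, n = 2 each), and the log2 fold change of 0.14 (SE 0.091) had a 95% interval from -0.08 to 0.37 and an edgeR adjusted p of 0.245. Its call depended on the scaling, because without TMM, by library size only, the log2 fold change was 0.37 and MMP14 was called higher (edgeR adjusted p = 0.0209). That scaling moved the median of all genes tested by 0.22.

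MMP15, a second transmembrane MMP of epithelia, had 684 and 562 counts in LGR5-high against 29 and 48 counts in LGR5-negative. The levels were 19.9 and 17.0 CPM against 1.02 and 1.59 CPM, with means of 18.5 ± 2.04 and 1.30 ± 0.404 CPM (SD, n = 2 each). The log2 fold change was 3.82 (SE 0.251, edgeR adjusted p = 2.26e-04), and within the pigs it was 4.21 and 3.37. Between the mean CPM levels MMP15 differed 14.2-fold and MMP2 56.1-fold, beside the small difference of MMP14, the activator of pro-MMP2.

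**Figure D2:**
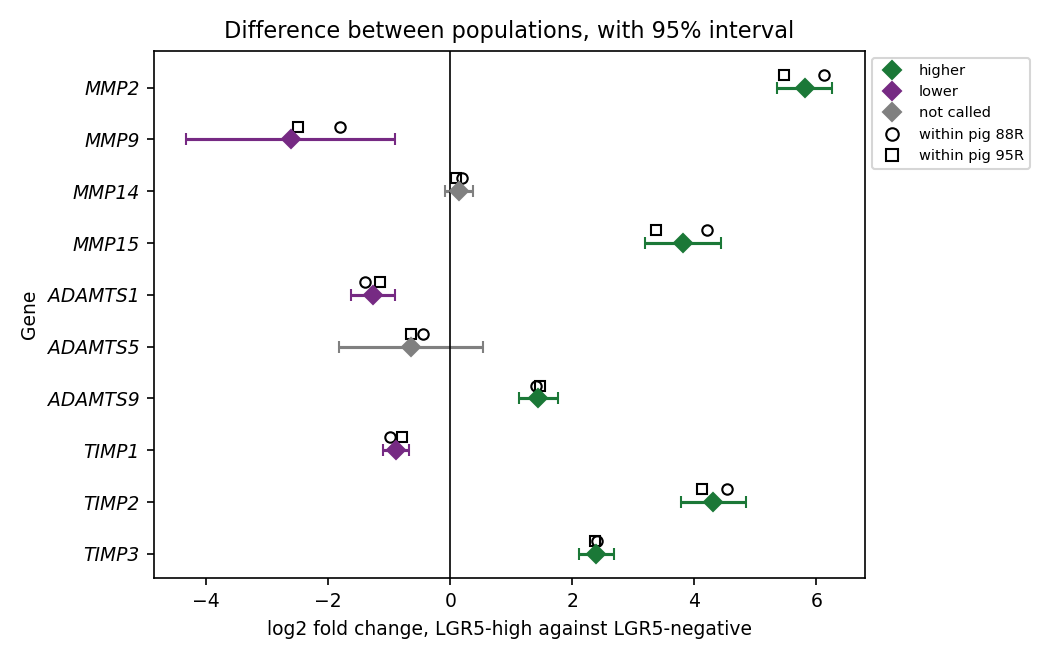
Log2 fold change of LGR5-high against LGR5-negative for the 10 genes, with filled diamonds for the fit over 4 libraries, bars for its 95% interval, and open circles and squares for the change within pigs 88R and 95R. The 8 coloured genes are those called, and because the interval comes from the same test, theirs leave out 0 by construction. The intervals of MMP14 (-0.08 to 0.37) and ADAMTS5 (-1.82 to 0.53) include 0.

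The 3 ADAMTS genes each gave a different answer. ADAMTS1, a versican- and aggrecan-cleaving protease, had 227 and 299 CPM in LGR5-high and 600 and 660 CPM in LGR5-negative, with no overlap. The means were 263 ± 50.9 and 630 ± 42.5 CPM (SD, n = 2 each), a 2.40-fold lower level in LGR5-high, and the log2 fold change was -1.26 (SE 0.147, edgeR adjusted p = 0.00145). ADAMTS9, which also cuts versican, had 56.0 and 66.8 CPM in LGR5-high and 21.1 and 24.0 CPM in LGR5-negative. Its means were 61.4 ± 7.60 and 22.6 ± 2.08 CPM (SD, n = 2 each), and the log2 fold change was 1.44 (SE 0.131, edgeR adjusted p = 6.11e-04). In the 2 pigs the log2 fold change was 1.41 and 1.47 for ADAMTS9 and -1.40 and -1.14 for ADAMTS1, so the related enzymes differed in opposite directions in both animals.

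ADAMTS5, the main aggrecanase of cartilage, was barely detected. It had 10 and 14 counts in LGR5-high and 12 and 21 counts in LGR5-negative, and on the CPM scale the highest LGR5-high value of 0.424 was above the lowest LGR5-negative value of 0.421. The log2 fold change was -0.64 (SE 0.476, edgeR adjusted p = 0.314) with a 95% interval from -1.82 to 0.53, so a difference in ADAMTS5 was not detectable at this depth.

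The inhibitors changed in composition between the populations. TIMP1, a soluble inhibitor of most MMPs that is induced in many activated cells, had 104 and 107 CPM in LGR5-high and 206 and 186 CPM in LGR5-negative. Its means were 106 ± 2.15 and 196 ± 14.5 CPM (SD, n = 2 each), and the log2 fold change was -0.89 (SE 0.087, edgeR adjusted p = 7.82e-04). TIMP2, the partner of MMP14 in the activation of MMP2, had 5038 and 5596 counts in LGR5-high and 179 and 291 counts in LGR5-negative. In CPM it had 147 and 169 against 6.28 and 9.63, and the log2 fold change was 4.31 (SE 0.214, edgeR adjusted p = 1.06e-04), and 4.53 and 4.13 within the pigs. TIMP3, the inhibitor held in the matrix, had 777 and 670 CPM in LGR5-high and 146 and 129 CPM in LGR5-negative. Its log2 fold change was 2.39 (SE 0.117, edgeR adjusted p = 1.02e-04), and the pigs differed little, with 2.41 and 2.37. For all 3 TIMP genes the direction was the same under every scaling between libraries that was tried.

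Ratios of raw counts between 2 genes within a library do not depend on the scaling between libraries. They still contain the lengths of the transcripts, so only their change between populations is read here, and they are given without a test. The MMP2 to TIMP2 ratio was 2.64 and 1.85 in LGR5-high and 0.872 and 0.729 in LGR5-negative, which makes it 3.03-fold and 2.53-fold higher in LGR5-high. MMP2 thus differed more than its partner TIMP2 in both pigs, although both genes were higher. The MMP2 to TIMP3 ratio was 13.3-fold and 8.60-fold higher in LGR5-high.

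For MMP14 the ratio to the same inhibitors went the other way. The MMP14 to TIMP2 ratio was 2.68 and 2.44 in LGR5-high and 54.9 and 40.0 in LGR5-negative, which is 20.5-fold and 16.4-fold higher in LGR5-negative. The MMP14 to TIMP3 ratio was 4.66-fold and 4.83-fold higher in LGR5-negative, whereas the MMP14 to TIMP1 ratio was 2.26-fold and 1.86-fold higher in LGR5-high. Relative to TIMP3, the TIMP that blocks ADAMTS enzymes, ADAMTS1 counts were 14.0-fold and 11.4-fold higher in LGR5-negative, and the ADAMTS9 to TIMP3 ratio was 0.0721 and 0.0997 in LGR5-high against 0.144 and 0.186. Among the inhibitors the TIMP1 to TIMP2 ratio shifted most, from 32.8 and 19.3 in LGR5-negative to 0.710 and 0.632 in LGR5-high.

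**Figure D3:**
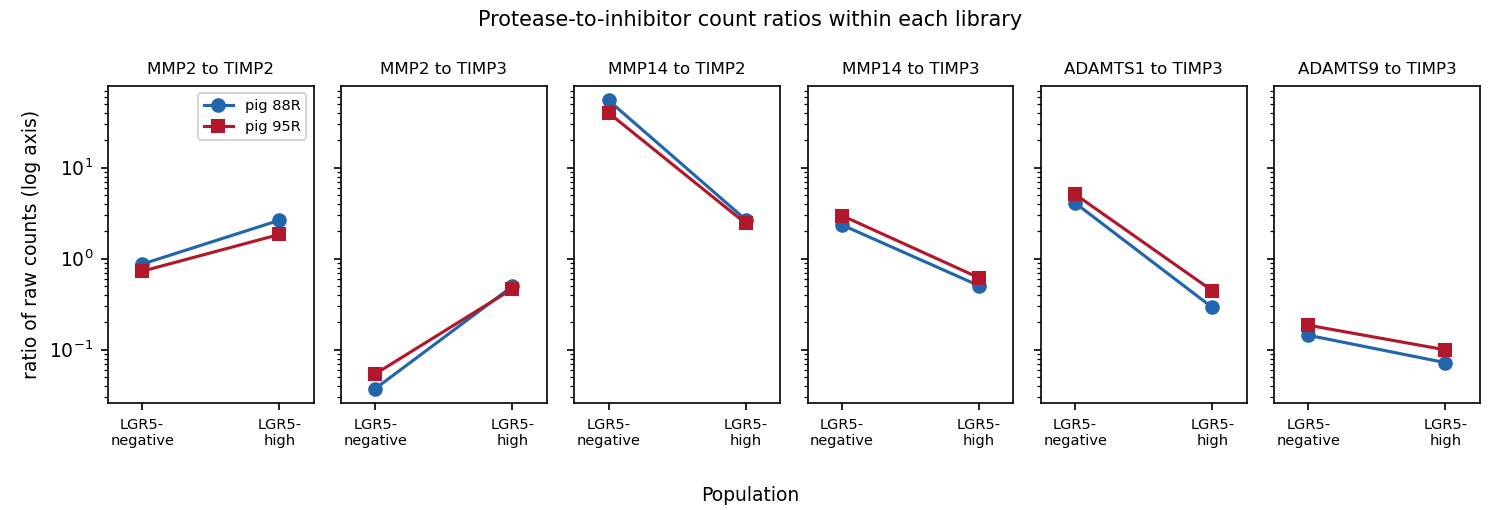
Ratio of the raw counts of a protease gene to those of a TIMP gene (log axis) in LGR5-negative and LGR5-high, with a line for each pig. The ratios with MMP2 rise towards LGR5-high (3.03-fold and 2.53-fold for MMP2 to TIMP2), and those of MMP14 to TIMP2 or TIMP3 and of ADAMTS1 or ADAMTS9 to TIMP3 fall, in both pigs.

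The wider families were read from lists of pathway genes. Of 22 MMP genes, 20 had a row and 15 were tested. Of these, 3 were higher, 4 were lower and 8 were not called, with a median log2 fold change of -0.01. These shares were near the 22.7% higher and 22.0% lower over all genes tested. MMP9, 1 of the 4 lower, entered the test only through LGR5-negative. Beside MMP2 and MMP15 the third higher gene was MMP11 (stromelysin-3), with 67.2 and 72.3 CPM against 41.5 and 50.4 CPM and a log2 fold change of 0.60 (edgeR adjusted p = 0.0101). The most lowered MMP was MMP28 (epilysin), an MMP of keratinocytes, with 5.35 and 6.24 CPM in LGR5-high and 67.0 and 69.8 CPM in LGR5-negative. Its log2 fold change was -3.56 (SE 0.123, edgeR adjusted p = 5.6e-05). MMP17 and MMP19 were lower by smaller amounts, with log2 fold changes of -0.98 (edgeR adjusted p = 0.0219) and -0.85 (edgeR adjusted p = 0.0436). These smaller calls were fragile. MMP11 was not called without the LGR5-high library of pig 95R (edgeR adjusted p = 0.0538). Without the LGR5-high library of pig 88R or 95R or the LGR5-negative library of pig 95R, the edgeR adjusted p was 0.112, 0.0966 and 0.0702 for MMP17, and 0.191, 0.080 and 0.137 for MMP19, in that order. MMP19 also lost its call with upper quartile or library size scaling (edgeR adjusted p = 0.0649 and 0.0972). MMP3, MMP8, MMP12, MMP13 and MMP27 had between 0 and 11 counts in each library and were not tested. The collagenase gene MMP1, with 69 and 30 counts against 53 and 66, and the matrilysin gene MMP7, with 158 and 156 counts against 169 and 105, were tested and not called.

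Most ADAMTS genes tested were higher in LGR5-high. Of 19 ADAMTS genes 17 were tested, and 12 were higher, 2 were lower and 3 were not called, against 22.7% higher and 22.0% lower over all genes tested. Their median log2 fold change was 1.63. Apart from ADAMTS1 the lower gene was ADAMTS4, an aggrecanase, with 14.7 and 18.6 CPM against 31.2 and 57.5 CPM and a log2 fold change of -1.41 (edgeR adjusted p = 0.0126). Without the LGR5-high library of pig 88R ADAMTS4 was not called (edgeR adjusted p = 0.0633), and without the LGR5-negative library of pig 95R its log2 fold change was -0.92. The largest increases were in genes almost absent from LGR5-negative. ADAMTS19 had 334 and 299 counts in LGR5-high and 2 and 2 in LGR5-negative, a ratio of 138 with a 95% counting interval of 53.6 to 507. ADAMTS8 had 443 and 434 counts against 4 and 5, a ratio of 84.9 with a counting interval of 44.5 to 186. ADAMTS18 had 92 and 61 counts against 2 and 3, a ratio of 26.7 with a counting interval of 11.2 to 83.3. ADAMTS19, ADAMTS8 and ADAMTS18 had under 10 counts in both LGR5-negative libraries and entered the test only through LGR5-high, where they were high, so their place among the 12 higher genes and in the median is a description and no support. ADAMTS7, which acts on cartilage oligomeric matrix protein, was higher at a better counted level, with 54.1 and 53.8 CPM against 2.39 and 3.31 CPM (log2 fold change 4.24, edgeR adjusted p = 6.75e-05).

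ADAMTS-like proteins resemble ADAMTS enzymes but lack the protease domain. Of 7 of their genes tested, 4 were higher and 2 were lower, against 22.7% and 22.0% of all genes tested. ADAMTSL4 and THSD4, both known to bind fibrillin microfibrils, had log2 fold changes of 3.73 (edgeR adjusted p = 2.32e-04) and 2.84 (edgeR adjusted p = 1.02e-04), and ADAMTSL2 one of 3.09. ADAMTSL3 was lower, with 0.785 and 1.60 CPM against 6.25 and 7.05 CPM. Of 3 further inhibitors tested only the serine protease inhibitor gene TFPI2 was called. It was higher in LGR5-high, with 5.70 and 6.42 CPM against 0.737 and 0.761 CPM (log2 fold change 3.01, edgeR adjusted p = 4.71e-04). TIMP4, the remaining TIMP gene, was not called, with a mean of 1.45 CPM in LGR5-high against 1.28 CPM.

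Of 7 activators and clearance genes 2 were higher and 2 were lower, shares near the 22.7% and 22.0% of all genes tested. FURIN, the proprotein convertase that activates MMP14 and several ADAMTS proteases, had 191 and 163 CPM in LGR5-high against 135 and 133 CPM in LGR5-negative (log2 fold change 0.40, edgeR adjusted p = 0.021). PCSK5, a related convertase, had 10.0 and 7.45 CPM against 0.386 and 0.662 CPM (log2 fold change 4.04, edgeR adjusted p = 4.97e-04). LRP1, the endocytic receptor that clears MMPs, ADAMTS proteases and TIMPs, was lower, with 151 and 151 CPM against 229 and 259 CPM (log2 fold change -0.69, edgeR adjusted p = 0.00219). PCSK6 was lower as well, with a log2 fold change of -0.55. FURIN was not called without the LGR5-high library of pig 88R, the LGR5-negative library of pig 88R or that of pig 95R (edgeR adjusted p = 0.108, 0.0551 and 0.0713). PCSK6 was not called without the LGR5-negative library of pig 88R or the LGR5-high library of pig 95R (edgeR adjusted p = 0.0613 and 0.101), nor with library size only (edgeR adjusted p = 0.0854).

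The plasminogen system, the serine protease route that can activate pro-MMPs, was read from 6 tested genes. Of these, 5 were lower in LGR5-high and 0 were higher, against 22.0% and 22.7% of all genes tested, with a median log2 fold change of -1.72. PLG, the gene of plasminogen itself, had 0 and 0 counts in LGR5-high and 0 and 1 in LGR5-negative, and was not tested. PLAU, which encodes urokinase, had 32.1 and 43.3 CPM in LGR5-high and 170 and 161 CPM in LGR5-negative, and its receptor gene PLAUR had 7.24 and 11.5 CPM against 34.7 and 51.7 CPM. Their log2 fold changes were -2.13 and -2.21 (edgeR adjusted p = 2.85e-04 and 0.00218). The urokinase inhibitor gene SERPINB2 had 129 and 135 CPM against 1235 and 1099 CPM (log2 fold change -3.14), and SERPINE2 one of -1.31. Both the activator and its inhibitors were therefore lower in LGR5-high in both pigs.

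Of 10 substrate genes of these enzymes 6 were called higher in LGR5-high and 3 lower, against 22.7% and 22.0% of all genes tested. The aggrecan gene ACAN had 85 and 76 counts against 1 and 3, a ratio of 35.1 with a counting interval of 13.4 to 130, and it too entered the test only through LGR5-high. COL4A1 and COL4A2, which encode the collagen IV cut by MMP2, had log2 fold changes of 4.36 and 4.59. The 3 lower genes were COL3A1, COL7A1 and COL17A1, with log2 fold changes of -3.09, -1.08 and -0.47. The summed level of the 10 substrate genes was 6102 and 7142 CPM in LGR5-high against 8175 and 8438 CPM in LGR5-negative. Most of this sum came from COL17A1 and COL7A1, both lower, so it does not describe the 6 higher genes. COL17A1 had 3218 and 3373 CPM against 4441 and 4685 CPM, and COL7A1 had 1197 and 1835 CPM against 3162 and 3254 CPM. MMP1, MMP3, MMP7, MMP8, MMP12, MMP13, MMP27, ADAMTS4, TIMP4, PLG, COL3A1, COL7A1 and COL17A1 fell outside the rule for named genes. They were chosen after their values were seen.

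**Figure D4:**
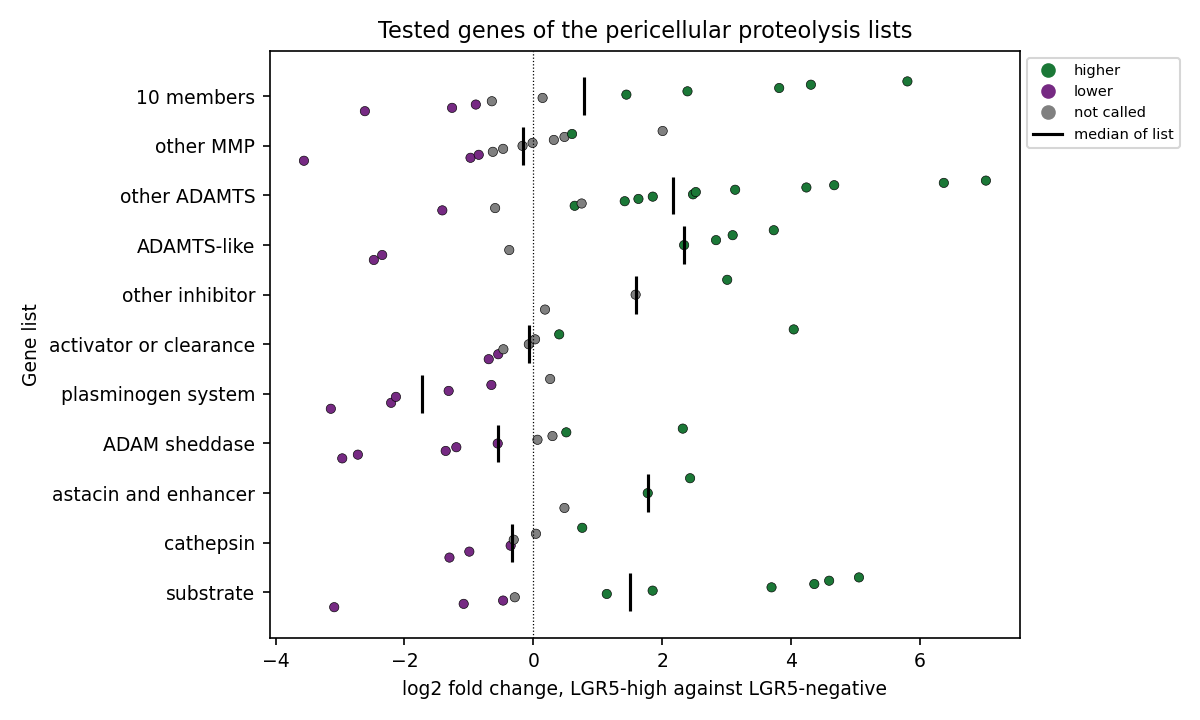
Log2 fold change of each tested gene by list, in green where it was higher, purple where lower and grey where not called, with a black bar at the median of the list. The other ADAMTS genes lie mostly to the right (11 of 14 higher), the plasminogen system to the left (5 of 6 lower), and the other MMP genes around 0. Over all genes tested, 22.7% were higher and 22.0% lower. ADAMTS19, ADAMTS8 and ADAMTS18, among the 11, entered the test only through LGR5-high, so their place there is a description.

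The gene with the most similar profile to each of the 10 was found by the Euclidean distance between log2 CPM values centred on their mean over the 4 libraries, and is given as a description. For MMP2 it was LOXL1, a crosslinking enzyme of elastic fibres, at a distance of 0.147, with 96.6 and 88.8 CPM in LGR5-high and 1.37 and 1.89 CPM in LGR5-negative. For TIMP2 it was KRT6A, a keratin of the follicle sheath, at 0.0965, with 1681 and 1861 CPM against 67.1 and 111 CPM. KRT6A has close paralogs, and the counting of reads they share is not known here. DUSP10 was nearest to MMP15 (0.0865), IGSF9 to TIMP3 (0.0696), SMARCD3 to ADAMTS9 (0.0195), MANBA to ADAMTS1 (0.0428), ACAA1 to TIMP1 (0.028), ARL14EP to MMP14 (0.0217) and CCDC189 to ADAMTS5 (0.0352). For MMP9 the nearest gene, ADGRG6, was also the farthest of these pairs, at 0.245.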

How the data were processed

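For each of the 4 paired-end poly(A) libraries the authors deposited raw read counts by gene symbol, without normalization. The submitters' processing notes name Trimmomatic 0.36, STAR 2.5.2b and featureCounts of Subread 1.5.2. The genome build, annotation and strand setting are not given in the sources used here, so reads of overlapping genes or close paralogs may be split in ways that cannot be checked, and no coordinates or sequences are given. All 10 symbols matched the RefSeq annotation of Sscrofa11.1, used for names only. An entry without a name, with 0.360% to 0.626% of the counts of a library, was left out.

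The comparison was run with edgeR 4.0.16 (R 4.3.3), using filterByExpr (minimum count 10, total 15), TMM and a 2-sided quasi-likelihood test on population alone, with Benjamini-Hochberg adjustment over all 15980 genes. Standard errors were derived from the F statistic, and the 95% intervals from the t distribution of the test. Changes within a pig used a prior count of 2. Gene lists were described by counts and medians. The 10 genes, the lists, the rule for named genes (at most 4 called genes a list, by size of change) and the alternatives were chosen with earlier results of these data known.

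Each pig gave both populations, which pairs the libraries. Across genes, the deviations of a pig's 2 libraries from their population means correlated with r = 0.370. Libraries of 1 population differed by more than counting noise (chi-square per degree of freedom 18.1 and 16.1). The alternatives were 3 other scalings, 2 other filters, the replicate block, DESeq2 1.42.0 with and without it, limma-voom (limma 3.58.1), Student's t-test (log2 CPM, pseudocount 1), and leaving out each library. The tests were tested on simulated data. Amplified reads are not independent molecules, so intervals on counts cover only counting error. The p-values rest on the spread between 2 pigs. In edgeR, DESeq2 and limma-voom that spread is moderated by the spread of the other genes, and only in the t-test is it each gene's own. Plots used matplotlib 3.10.9.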

Additional observations from a re-analysis of the deposited data

How the results depend on the processing

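The 5 higher genes of the 10 were called under every alternative except Student's t-test on log2 CPM, which called 1 higher and 0 lower, and it called 7 higher and 6 lower of the pathway genes against 30 and 24 with edgeR. Over all genes the t-test called 544 higher and 502 lower, and library size only called 5473 and 2326, against 3632 and 3508. No direction of the 10 genes was reversed. With the pig as a replicate block, 5 and 3 of the 10 genes, 32 and 27 pathway genes and 4562 and 4342 of all genes were called. Leaving out 1 library gave between 2279 and 3169 higher and between 2139 and 3004 lower genes. Without the LGR5-high library of pig 88R 2340 genes were higher, and without that of pig 95R 2279 were higher and 2139 lower. In those fits the lone library of a population is assumed to vary like the other population. The cause of these shifts was not tested.

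Of the 35 genes of the pathway lists that the rule names, 11 kept their call under every alternative that tested them and 0 changed direction (ADAMTS19, ADAMTS8 and ACAN, among these 11, were dropped by the filter of at least 10 counts in every library), and 9 lost it under at least 1 setting other than the t-test. MMP9, with at most 19 counts in a library, lost its call in DESeq2 with the replicate block too (adjusted p = 0.12 from DESeq2), and could not be tested with at least 10 counts in every library. Its log2 fold change lay between -4.06 and -0.52.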

Other observations

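Other genes of pericellular proteolysis were also counted. ADAM genes encode membrane-bound proteins, of which many but not all are sheddases of growth factors and adhesion proteins. Of 9 ADAM genes tested, 5 were lower in LGR5-high and 2 were higher, where 22.0% and 22.7% of all genes tested were (the same shares apply to the counts that follow). ADAM8 had 0.756 and 0.878 CPM in LGR5-high and 5.40 and 5.43 CPM in LGR5-negative (log2 fold change -2.72, edgeR adjusted p = 6.62e-04), and ADAM19 had 0.611 and 1.88 CPM against 7.40 and 12.0 CPM (log2 fold change -2.97, edgeR adjusted p = 0.00697). ADAM33, 1 of the 2 higher, had 41 and 23 counts against 2 and 9. It entered the test only through LGR5-high, so its place among the higher genes is a description and no support. ADAM23, 1 of the 5 lower, had 11 and 12 counts against 21 and 31. Both calls were lost under some of the alternatives. Of the procollagen-processing genes 3 were tested and 2 were called, both higher. BMP1, the procollagen C-proteinase, had 67.2 and 70.7 CPM against 9.09 and 16.4 CPM (log2 fold change 2.43, edgeR adjusted p = 0.0012), and its enhancer gene PCOLCE2 had 12.2 and 12.0 CPM against 3.79 and 3.28 CPM. Of 6 cathepsin genes 1 was higher and 3 were lower. The lysosomal aspartic protease gene CTSD was the higher one, with 169 and 180 CPM against 99.6 and 107 CPM, and the collagenolytic CTSK was lower, with 24.8 and 23.2 CPM against 52.5 and 43.0 CPM (log2 fold change -0.99, edgeR adjusted p = 0.00224).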
